A study of Homo sapiens with 6 samples.

Results

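Here are described 40 human genes that copy DNA or drive cells from G1 into S phase, out of 18852 genes that have a singly named probe on the arrays of this series. They were chosen by gene symbol from a list of replication and G1/S genes. The rule did not use the measured values, but the list was made with earlier results of these data known. All probes whose platform annotation gives 1 of these symbols and no other were taken, 62 probes in all. Of these, 56 probes of 37 genes were detected well enough to be tested, and 6 probes were not, among them the single probes of CCNE2, E2F1 and GINS1. The cells were OVSAYO, an established line from an ovarian clear cell carcinoma, and RNA was taken 48 hours after transfection and read on 6 single-colour Illumina arrays. On 3 inhibitor arrays the cells had received hairpin inhibitors of miR-30a at 44 nM and of miR-30d at 22 nM in 1 transfection. On 3 control arrays they had received 66 nM of a negative control hairpin inhibitor, which is modelled on a worm microRNA with little similarity to human ones. Both groups thus carried the transfection reagent and the same total amount of inhibitor, and both came from a single cell line.

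Before S phase, cyclin D with CDK4 or CDK6, and then cyclin E with CDK2, phosphorylate the retinoblastoma protein and free E2F factors, which switch on the genes of DNA replication. The origin recognition complex, CDC6 and CDT1 meanwhile load the ring of MCM proteins onto DNA, and CDC45 and the GINS complex turn the loaded ring into a working helicase. Behind the helicase, primase and polymerase alpha start each strand, the RFC complexes load the PCNA clamp, and ribonucleotide reductase and thymidylate synthase supply the building blocks. Many carcinomas, those of the ovary included, carry lesions in this pathway.

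MicroRNAs of the miR-30 family pair with target mRNAs through a shared seed, the bases at positions 2 to 8 of the mature strand. The sequences below, from RefSeq (GRCh38.p14), show that the seed is the same in miR-30a, against which an inhibitor was used, and in its relatives miR-30c and miR-30e. Capitals mark the seed, and miR-30a lies at chr6:71403595-71403616 on the minus strand, miR-30c (gene MIR30C1) at chr1:40757300-40757322 and miR-30e at chr1:40754371-40754392, both on the plus strand.
hsa-miR-30a-5p: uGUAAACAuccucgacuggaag
hsa-miR-30c-5p: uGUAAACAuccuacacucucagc
hsa-miR-30e-5p: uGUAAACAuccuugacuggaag
The mature microRNAs themselves were not read on these arrays, so the extent of their inhibition is not known here. CCNE2, the gene of cyclin E2, is the member that has been reported as a miR-30 target.

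Values are given as normalized log2 intensities in the order of replicates 1, 2 and 3, and a difference is the mean of the inhibitor arrays minus the mean of the control arrays. The mean raw signal was 258.5, 240.3 and 257.8 on the inhibitor arrays, against 222.6, 239.9 and 237.2 on the control arrays, so every inhibitor array was brighter. The median raw signal was 48.3, 44.1 and 45.8 on the inhibitor arrays, against 48.2, 49.9 and 47.5 on the control arrays. On each array 43.4% to 45.2% of all probes were detected. Of the 56 tested member probes, 55 were detected on all 6 arrays. In the members, inhibitor replicate 3 and control replicate 2 stood apart from the other arrays of their groups. They held the highest value of their group in 78.4% and 59.5% of the measured members, beside 37.5% and 36.1% of all genes. Over all tested probes their deviations from their group means correlated at 0.365, the highest of the 9 pairs of an inhibitor with a control array, all of which share the same probes. Values of many of the genes are therefore also given without inhibitor replicate 3, or without both arrays. Inhibitor replicate 3 was already known to be high in cycle genes. Leaving it out was thus bound to lower the difference of any gene whose highest inhibitor value it holds. Without it 22.8% of all genes had an unadjusted p under 0.05 with limma, beside 10.8% with all arrays. The epithelial marker genes were detected on all arrays, whereas PTPRC of leukocytes, VWF and CLDN5 of endothelium and COL3A1, PDGFRB and THY1 of fibroblasts were detected on 0. CD14, CD68 and CD79A, 3 of 7 leukocyte markers, and DCN and LUM, 2 of 7 fibroblast markers, were detected on all 6 arrays. The summed log2 level of the leukocyte markers was 19.0 to 19.2 on the inhibitor arrays and 19.1 to 19.6 on the control arrays, and that of the fibroblast markers was 9.92 to 10.4 on the inhibitor arrays and 9.84 to 10.2 on the control arrays. Of 5 endothelial markers 1 was measured, PECAM1, at 4.62 to 4.75 on the inhibitor arrays and 4.91 to 5.15 on the control arrays, and the part of these markers in the values below was not tested. Bulk RNA cannot tell a smaller share of cells in S phase from less RNA of these genes per cell.

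No replication or G1/S gene passed an adjusted p of 0.05 with limma. The largest differences were those of CDK6, at −0.25, and RFC4, at 0.24, or −16.1% and 17.9% on the linear scale. The median over the 37 measured genes was −0.01, with 15 higher and 22 lower with the inhibitors, beside a median of 0.01 over all 12183 genes tested. The adjusted p of the members ran from 0.384 to 0.997, and over all genes and all probes 0.00% passed. At an unadjusted p under 0.05 there were 3 members, or 8.11% of those measured, beside 10.8% of all genes. RFC4 was the 1 that was higher, beside 5.17% of all genes, and CDK6 and SLBP were the 2 that were lower, beside 5.65%. Among single probes, 3 of 56 had an unadjusted p under 0.05, beside 10.0% of all probes, and 28 were higher and 28 lower.

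In 6 members, 16.2% of the 37, the inhibitor values did not overlap the control values, beside 16.3% of all genes. MCM2 and RFC4 lay above the controls on every inhibitor array, beside 8.92% of all genes, and CDK6, E2F2, RRM1 and SLBP lay below on every array, beside 7.40%. Over both directions the share of members was thus near that of all genes. Grouped by role, the median difference was −0.14 for the E2F factors, −0.15 for nucleotide supply and −0.01 for the G1 cyclins, their kinases and CDC25A. It was 0.04 for origin licensing, 0.01 for helicase activation, 0.05 for DNA synthesis and the clamp, and −0.16 for the role of histone supply, chromatin assembly and uracil repair. Without inhibitor replicate 3 the median was −0.14 for the G1 role, −0.05 for helicase activation, 0.02 for licensing and 0.01 for synthesis. It was then −0.19 for the E2F factors, −0.25 for nucleotide supply and −0.25 for the role of histone supply, chromatin assembly and uracil repair. With control replicate 2 left out as well, the G1 role was at −0.06 and helicase activation at −0.02.

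**Figure D1:**
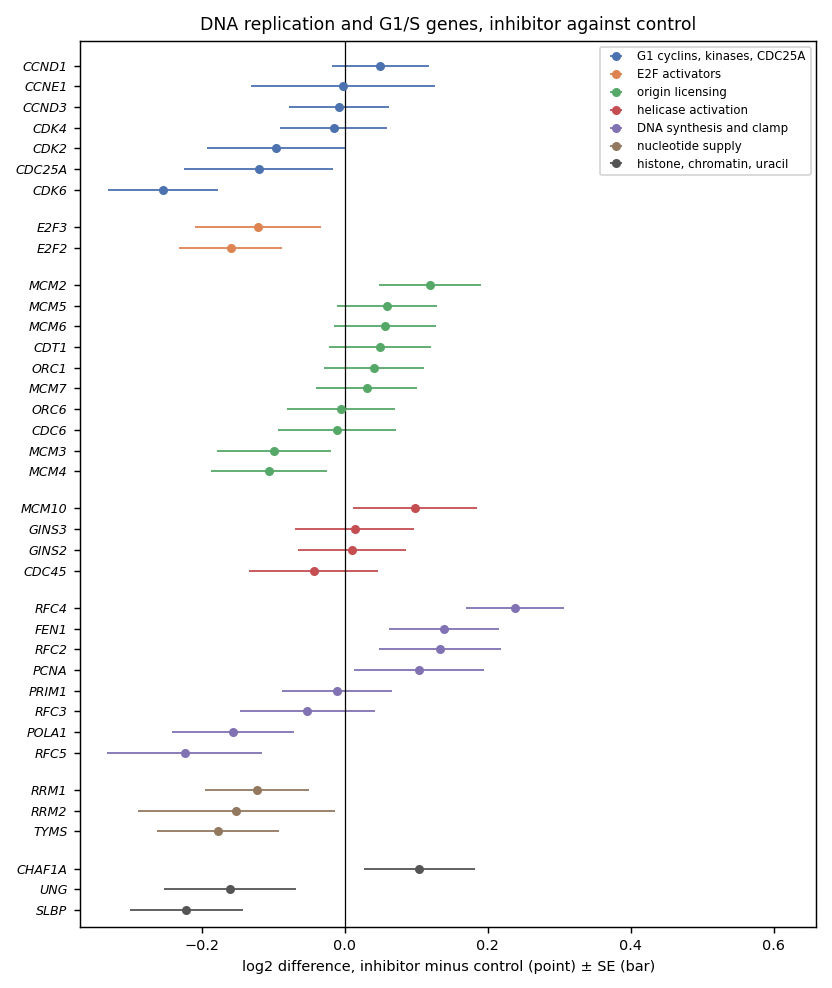
Log2 difference, inhibitor minus control, of the 37 measured genes (points) with its standard error (bars), grouped by role and ordered by size within each role. All points lie between −0.25 and 0.24, and both directions occur in 5 of the 7 roles, while the measured E2F factors and the nucleotide supply genes all lie below 0.

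CCNE2 could not be measured. Its probe (ILMN_1651260) gave raw signals of 37.2, 40.9 and 35.2 on the inhibitor arrays, against 36.1, 36.4 and 37.1 on the control arrays, and passed the detection limit on 0 of 6. Its detection score, which nears 1 for a signal above background, was at most 0.713. Fitted all the same without the detection filter, it had a difference of 0.07, with an unadjusted p of 0.264, which at this signal is a reading of background. At this signal a decrease of CCNE2 could not be seen, and on 0 of the inhibitor arrays did the signal reach the detection limit.

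CDK6, the partner of D-type cyclins that starts phosphorylation of the retinoblastoma protein, was the lowest of the G1 genes relative to the controls. Its probe (ILMN_1802615) read 8.68, 8.76 and 8.84 on the inhibitor arrays, against 9.09, 9.02 and 8.93 on the control arrays. All 3 inhibitor values lay below all 3 control values, by the least between inhibitor replicate 3 and control replicate 3. CDK6 averaged 8.76 ± 0.08 with the inhibitors and 9.01 ± 0.08 in the controls (SD, n = 3 each). The difference was −0.25 ± 0.08 (SE), with an unadjusted p of 0.00802 and an adjusted p of 0.384 with limma. It was −0.29 without inhibitor replicate 3 and −0.29 without both arrays that stood apart. With single arrays left out it ran from −0.30 to −0.21. When arrays were scaled by their medians alone it was −0.11, relative to a median of 0.12 for all genes. Before normalization the groups overlapped, with raw signals of 470.6, 450.5 and 532.2 on the inhibitor arrays and of 512.3, 538.9 and 498.2 on the control arrays.

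CDC25A, the phosphatase that removes inhibitory phosphate from CDK2, read 7.85, 7.80 and 8.14 on the inhibitor arrays, against 8.04, 8.18 and 7.93 on the control arrays. Inhibitor replicate 3 lay with the controls and the other inhibitor arrays below them. Over all arrays CDC25A had a difference of −0.12 ± 0.10 (SE, adjusted p 0.669). Without inhibitor replicate 3 it had −0.23, with an unadjusted p of 0.028 with limma, where 22.8% of all genes were under 0.05. Without both arrays that stood apart it had −0.16, with an unadjusted p of 0.0718 with limma. With single arrays left out the difference of CDC25A ran from −0.23 to −0.06. Its other probe had −0.03.

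The remaining G1 genes differed less. CCNE1, the gene of cyclin E1, read 10.95, 10.86 and 11.33 on the inhibitor arrays, against 10.88, 11.22 and 11.06 on the control arrays, and its difference was −0.0022. The SD of CCNE1 was 0.25 over the inhibitor arrays and 0.17 over the control arrays. Inhibitor replicate 3 and control replicate 2 held the highest values of their groups. The difference of CCNE1 was −0.14 without inhibitor replicate 3 and −0.06 without both arrays. CDK2, the kinase that cyclin E activates, had −0.10 by the probe with the higher mean and 0.04 by the other. The first of these was −0.17 without inhibitor replicate 3 and −0.09 without both arrays. CDK4 had −0.02, and the D-type cyclin genes CCND1 and CCND3 had 0.05 and −0.01. CCND3 was the steadiest member over the inhibitor arrays, with an SD of 0.02. Of the 7 measured genes of this role 1 was higher and 6 were lower, but 6 were higher when arrays were scaled by their medians alone (median centring), which moved the median of all genes to 0.12.

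The E2F factors sit between the cyclin-dependent kinases and the replication genes. E2F1 was not measurable, as its single probe gave raw signals of 41.3, 38.7 and 42.1 on the inhibitor arrays, against 47.5, 46.9 and 40.9 on the control arrays, and passed the detection limit on 0 of 6. E2F2 read 7.55, 7.65 and 7.71 on the inhibitor arrays, against 7.79, 7.77 and 7.84 on the control arrays. Every inhibitor value of E2F2 lay below every control value, the closest pair being inhibitor replicate 3 and control replicate 2. The difference was −0.16 ± 0.07 (SE), with an unadjusted p of 0.0521 and an adjusted p of 0.461 with limma. It was −0.19 without inhibitor replicate 3, −0.21 without both arrays and −0.12 without inhibitor replicate 1. With median centring E2F2 was at −0.02, relative to 0.12 for all genes. E2F3 read 10.16, 10.13 and 10.31 on the inhibitor arrays, against 10.29, 10.46 and 10.21 on the control arrays, and the groups overlapped. The difference of E2F3 was −0.12 ± 0.09 (SE, adjusted p 0.615), and it was −0.18 without inhibitor replicate 3, −0.05 without control replicate 2 and 0.03 with median centring, relative to 0.12 for all genes.

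The promoters of the members were read for letters that E2F factors bind, since these factors connect the G1 genes to the rest of the list. Windows of 300 bases, from 250 before to 50 after the transcription start, came from RefSeq (GRCh38.p14) and held 35 of the 40 genes, not CCND1, CCNE2, CDK2, MCM4 and MCM5. The letters searched on both strands were TTTCCCGC, TTTGGCGC, TTTCGCGC and TTTGCCGC, of which TTTGGCGC can overlap the reverse of TTTCGCGC, and CCAAT, the letters that the factor NF-Y binds. The windows of MCM6 (chr2:135876394-135876693, minus strand), E2F1 (chr20:33686336-33686635, minus strand) and TYMS (chr18:657403-657702, plus strand) are shown because they hold 4, 2 and 1 E2F matches, in a helicase subunit, in the factor's own gene and in a nucleotide supply gene. Capitals mark the E2F matches, and in MCM6 each of the 2 capital stretches holds 2 overlapping ones.
MCM6: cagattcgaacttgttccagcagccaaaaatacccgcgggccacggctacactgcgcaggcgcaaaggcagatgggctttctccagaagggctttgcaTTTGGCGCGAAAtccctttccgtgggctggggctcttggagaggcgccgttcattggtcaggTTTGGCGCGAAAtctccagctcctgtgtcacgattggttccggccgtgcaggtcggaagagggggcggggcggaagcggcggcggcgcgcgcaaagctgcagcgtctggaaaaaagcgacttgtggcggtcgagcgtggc
E2F1: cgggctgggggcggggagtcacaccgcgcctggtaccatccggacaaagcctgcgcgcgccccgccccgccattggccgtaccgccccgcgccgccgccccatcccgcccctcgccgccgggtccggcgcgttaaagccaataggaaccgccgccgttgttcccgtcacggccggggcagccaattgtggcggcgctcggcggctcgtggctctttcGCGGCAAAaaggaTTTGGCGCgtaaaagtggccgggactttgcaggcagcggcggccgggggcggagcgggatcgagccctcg
TYMS: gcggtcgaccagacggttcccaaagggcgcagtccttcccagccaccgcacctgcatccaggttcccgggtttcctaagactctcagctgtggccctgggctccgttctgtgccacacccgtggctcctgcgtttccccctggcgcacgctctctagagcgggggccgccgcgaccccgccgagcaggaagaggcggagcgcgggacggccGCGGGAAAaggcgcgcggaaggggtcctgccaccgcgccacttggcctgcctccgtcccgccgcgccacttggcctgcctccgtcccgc
An E2F match stood in a window of 18 of the 35 genes, or 51.4%, beside 3.99% of 27305 genes with a window and 6.29% of those that were also tested on the arrays. CCAAT stood in 62.9% of the members and in 39.7% of all genes. By role, E2F matches were found in 3 of 3 E2F genes, 6 of 8 licensing genes and 3 of 5 helicase activation genes. They were found in 3 of 8 synthesis genes, 1 of 3 nucleotide supply genes and 1 of 5 G1 genes. In the role of histone supply, chromatin assembly and uracil repair 1 of 3 genes had a match. A match is a description of letters and not of binding.

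**Figure D2:**
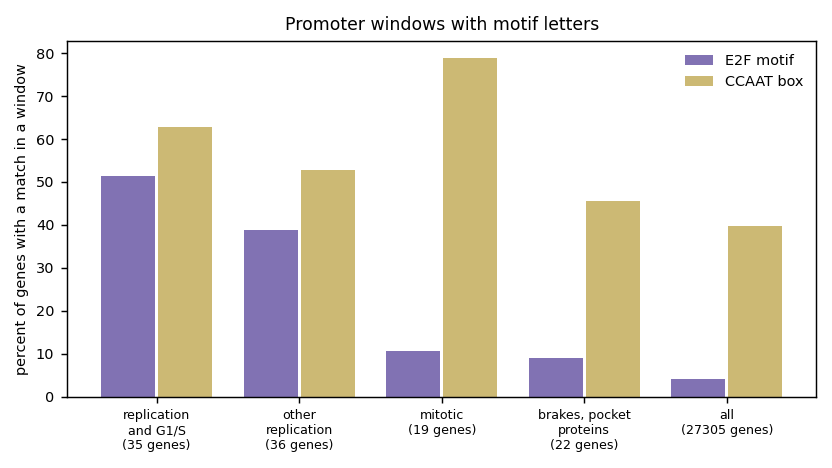
Percent of genes with a match to an E2F motif (purple) or to CCAAT (yellow) in a 300-base promoter window, for the replication and G1/S genes, 3 related gene lists and all genes with a window. The replication and G1/S genes reach 51.4% for E2F against 3.99% of all genes, and the mitotic genes reach 78.9% for CCAAT.

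The arrays were then read by these letters. The 16 measured genes with an E2F match had a median difference of −0.03, with 7 higher and 9 lower, and 13 of them were highest within their group on inhibitor replicate 3. The 17 without a match had a median of −0.01, with 6 higher and 11 lower, and 13 were highest on that array. No test was made between the sets.

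Origin licensing was measured in full, with 10 of 10 genes. MCM2, a subunit of the helicase ring, read 9.41, 9.35 and 9.27 on the inhibitor arrays, against 9.18, 9.23 and 9.26 on the control arrays. The groups did not overlap, but inhibitor replicate 3 and control replicate 3 lay within 0.01 of each other. MCM2 had a difference of 0.12 ± 0.07 (SE, adjusted p 0.564), and of 0.16 without inhibitor replicate 3. MCM4, another subunit, read 12.37, 12.37 and 12.57 on the inhibitor arrays, against 12.54, 12.60 and 12.48 on the control arrays. Here inhibitor replicate 3 lay among the controls and the other inhibitor arrays below them, and the difference was −0.11 ± 0.08 (SE, adjusted p 0.633). It was −0.17 without inhibitor replicate 3 (unadjusted p 0.0402 with limma), a fit in which 22.8% of all genes had an unadjusted p under 0.05. Without both inhibitor replicate 3 and control replicate 2 it was −0.15 (unadjusted p 0.0839 with limma).

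The 6 subunits of the ring did not all lie on 1 side of 0, although they work as 1 complex. MCM2, MCM5, MCM6 and MCM7 had 0.12, 0.06, 0.06 and 0.03, and MCM3 and MCM4 had −0.10 and −0.11. MCM3 and MCM4 had 2 probes each, which gave −0.10 and −0.10 for MCM3 and −0.11 and −0.12 for MCM4, while the 3 probes of MCM7 gave 0.03, 0.07 and 0.07. Whether subunits differed from each other was not tested, and with median centring, under which the median of all genes was 0.12, MCM3 and MCM4 had 0.05 and 0.03 and all 10 licensing genes were higher. Without inhibitor replicate 3 MCM3 was at −0.17, MCM6 at 0.02 and MCM7 at −0.01. The proteins that load the ring lay closer to 0 than the ring's own extremes. ORC1 and ORC6, subunits of the origin recognition complex, had 0.04 and −0.0049, and the second probe of ORC6 had 0.10. The loading factors CDC6 and CDT1 had −0.01 and 0.05.

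In helicase activation 4 of 5 genes were measured, GINS1 being undetected on 6 of 6 arrays, and their differences ran from −0.04 to 0.10. MCM10, which helps the loaded ring to start unwinding, read 8.64, 8.40 and 8.66 on the inhibitor arrays, against 8.48, 8.51 and 8.41 on the control arrays. Its inhibitor values straddled the controls, with replicate 2 below all of them, and its difference was 0.10 ± 0.09 (SE, adjusted p 0.671), or 0.06, 0.18 and 0.05 without inhibitor replicates 1, 2 and 3 in turn. CDC45, a core part of the moving helicase, read 10.01, 10.03 and 10.30 on the inhibitor arrays, against 10.11, 10.22 and 10.14 on the control arrays. Its inhibitor replicate 3 was the highest of the 6 arrays and the other inhibitor arrays were the lowest, with a difference of −0.04 ± 0.09 (SE, adjusted p 0.876) that was −0.14 without inhibitor replicate 3, 0.0094 without inhibitor replicate 1 and 0.10 with median centring. GINS2 and GINS3, subunits of the GINS complex, had 0.01 and 0.01, and −0.04 and −0.06 without inhibitor replicate 3.

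DNA synthesis held the largest positive difference. RFC4, a subunit of the complex that loads the PCNA clamp, was represented by probe ILMN_2370365, which read 9.95, 9.87 and 9.97 on the inhibitor arrays, against 9.67, 9.70 and 9.71 on the control arrays. All 3 inhibitor values lay above all 3 control values with little spread in either group. RFC4 averaged 9.93 ± 0.06 with the inhibitors and 9.69 ± 0.02 in the controls (SD, n = 3 each), and its difference was 0.24 ± 0.07 (SE), with an unadjusted p of 0.00606 and an adjusted p of 0.384 with limma. It was 0.22 without inhibitor replicate 3 and 0.22 without both arrays that stood apart. The second RFC4 probe, ILMN_1724489, is listed under another transcript of the gene and did not share this difference. It read 9.56, 9.49 and 9.64 on the inhibitor arrays, against 9.60, 9.57 and 9.55 on the control arrays, a difference of −0.01. The mean of the 2 probes had 0.11, with an unadjusted p of 0.116.

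RFC5, another subunit of the clamp loader, went the other way. It read 8.62, 8.64 and 9.00 on the inhibitor arrays, against 8.97, 9.08 and 8.87 on the control arrays. Inhibitor replicates 1 and 2 lay below every control, and inhibitor replicate 3 lay above control replicates 1 and 3. The difference of RFC5 was −0.22 ± 0.11 (SE, unadjusted p 0.0667, adjusted p 0.481). Without inhibitor replicate 3 it was −0.35, with an unadjusted p of 0.00215 and an adjusted p of 0.0773 with limma. This was the lowest adjusted p of any member in that fit, where 22.8% of all genes had an unadjusted p under 0.05. That array held the highest inhibitor value of RFC5, so leaving it out was bound to lower the difference. Without both arrays the difference was −0.29, with an adjusted p of 0.155 with limma.

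The other synthesis genes lay between −0.16 and 0.14 by the probes with the highest means. FEN1, the nuclease that trims Okazaki fragments, had 0.14 and 0.11 by its 2 probes, and RFC2, also of the clamp loader, had 0.13 and 0.18. PCNA had 0.10, 0.10 and 0.03 by its 3 probes. All probes of FEN1, RFC2 and PCNA thus lay above 0, while those of POLA1 and RFC3 lay on both sides. POLA1, the catalytic subunit of polymerase alpha, had −0.16 and 0.03, and PRIM1, the catalytic subunit of primase, had −0.01 and −0.16. RFC3 had −0.05, −0.04 and 0.06, and the first of these was −0.14 without inhibitor replicate 3. The clamp loader subunits therefore had 2 genes higher and 2 lower, and with median centring RFC3 was higher as well.

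All 3 nucleotide supply genes were lower on average, without passing the threshold, and 2 of them were higher on inhibitor replicate 3 than on at least 1 control array. TYMS, thymidylate synthase, read 9.69, 9.69 and 9.90 on the inhibitor arrays, against 9.91, 10.04 and 9.86 on the control arrays. RRM1, the large subunit of ribonucleotide reductase, read 10.80, 10.84 and 10.96 on the inhibitor arrays, against 10.98, 10.96 and 11.01 on the control arrays. RRM2, its small subunit, read 7.08, 7.16 and 7.58 on the inhibitor arrays, against 7.24, 7.62 and 7.41 on the control arrays. RRM1 was the gene of these whose groups did not overlap, with inhibitor replicate 3 just under control replicate 2, while in TYMS and RRM2 inhibitor replicate 3 lay among the controls.

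The differences were −0.18 ± 0.09 for TYMS (SE, unadjusted p 0.0652, adjusted p 0.479), −0.12 ± 0.07 for RRM1 (SE, adjusted p 0.561) and −0.15 ± 0.14 for RRM2 (SE, adjusted p 0.686). Without inhibitor replicate 3 they were −0.25, −0.17 and −0.31, with unadjusted p-values of 0.0122, 0.0373 and 0.0188. Without both arrays they were −0.19, −0.18 and −0.21, with unadjusted p-values of 0.0294, 0.0374 and 0.0459. All 3 genes had their highest inhibitor value on replicate 3, so leaving it out was bound to lower their differences. An unadjusted p under 0.05 was reached by 22.8% of all genes without inhibitor replicate 3 and by 18.7% without both arrays. RRM2 had the widest spread of any member over the inhibitor arrays, with an SD of 0.27. With median centring TYMS and RRM2 had −0.03 and −0.02 and RRM1 had 0.01, relative to 0.12 for all genes.

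SLBP, which binds the stem-loop at the end of histone mRNAs and is needed for histone supply in S phase, was the other member with an unadjusted p under 0.05 that was lower. Its probe ILMN_1753353 read 8.01, 8.05 and 8.20 on the inhibitor arrays, against 8.25, 8.38 and 8.30 on the control arrays. The groups did not overlap, and inhibitor replicate 3 lay closest to the controls. SLBP averaged 8.09 ± 0.10 with the inhibitors and 8.31 ± 0.07 in the controls (SD, n = 3 each). The difference was −0.22 ± 0.08 (SE), with an unadjusted p of 0.0188 and an adjusted p of 0.409 with limma, and it was −0.28 without inhibitor replicate 3 and −0.25 without both arrays. The second SLBP probe, ILMN_2055700, read 6.41, 6.21 and 6.08 on the inhibitor arrays, against 6.03, 6.29 and 6.33 on the control arrays. It overlapped between the groups and had 0.02, and the mean of both probes had −0.10, with an unadjusted p of 0.205.

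UNG, the glycosylase that removes uracil from newly made DNA, read 8.74, 8.79 and 9.03 on the inhibitor arrays, against 9.12, 9.01 and 8.93 on the control arrays. Inhibitor replicate 3 lay among the controls and the other inhibitor arrays below them. The difference of UNG was −0.16 ± 0.09 (SE, adjusted p 0.553). It was −0.25 without inhibitor replicate 3 and −0.25 without both arrays, with unadjusted p-values of 0.0127 and 0.022 with limma. In those fits 22.8% and 18.7% of all genes had an unadjusted p under 0.05. Without inhibitor replicate 1 the difference of UNG was −0.10. CHAF1A, a subunit of the factor that places histones on new DNA, had 0.10 ± 0.08 (SE, adjusted p 0.620).

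**Figure D3:**
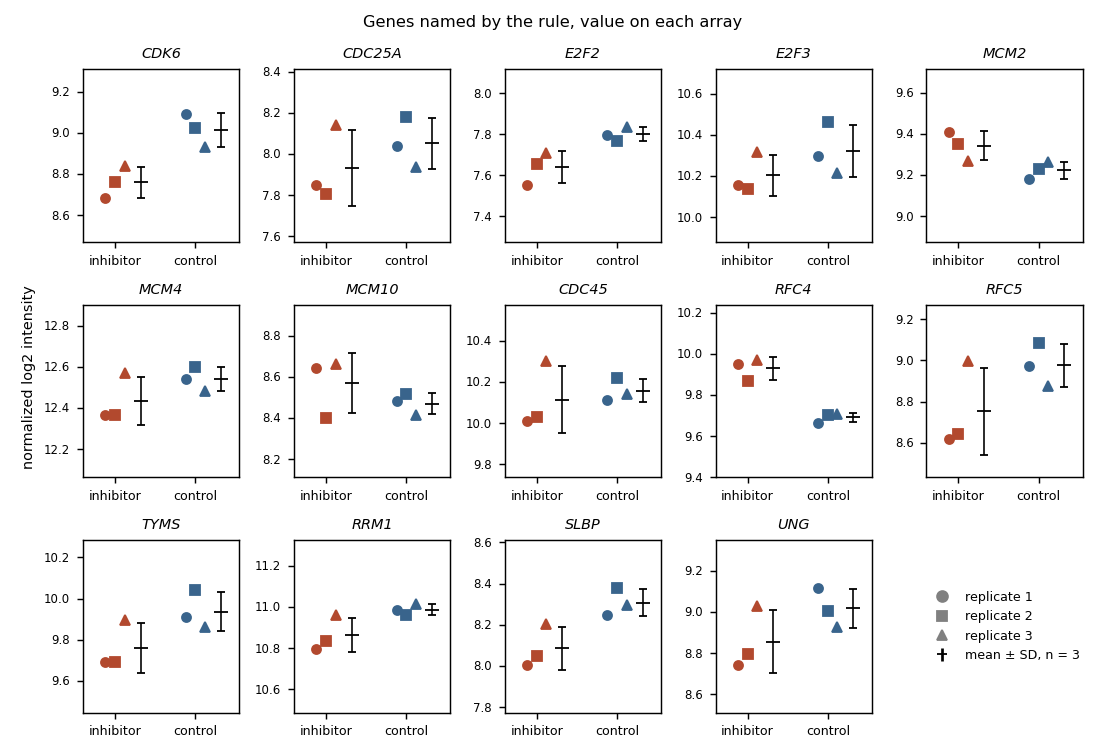
Normalized log2 intensity of the 14 members described on every array, with inhibitor arrays in red on the left of each panel, control arrays in blue on the right, and the mean ± SD (n = 3) beside each group. In CDC25A, E2F3, MCM4, RFC5, TYMS and UNG the triangle of inhibitor replicate 3 stands among the controls above the other inhibitor arrays, whereas in CDK6, E2F2, RFC4, RRM1, SLBP and MCM2 the groups do not overlap.

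The inhibitor arrays differed from each other in the level of these genes as a whole. The median of the 37 genes, as log2 value minus the control mean of each gene, was −0.08, −0.07 and 0.07 on the inhibitor arrays, against −0.01, 0.05 and −0.01 on the control arrays. Inhibitor replicate 3 was the highest and the other inhibitor arrays were the lowest of the 6. Over all genes tested the same medians lay between 0.00 and 0.01. Inhibitor replicate 3 held the highest inhibitor value in 29 of 37 members, or 78.4%, beside 37.5% of all genes, and control replicate 2 held the highest control value in 22, or 59.5%, beside 36.1%. Among probes, 44 of 56 were highest within their group on inhibitor replicate 3. That these arrays stand apart in cycle genes was known from earlier results of the same data, and the cause was not tested.

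The pattern was then counted by role, with no test between roles. The highest inhibitor value lay on replicate 3 in 4 of 4 helicase activation genes, 3 of 3 nucleotide supply genes and 2 of 2 E2F factors. It did so in 6 of 8 synthesis genes, 7 of 10 licensing genes, 5 of 7 G1 genes and 2 of 3 genes of histone supply, chromatin assembly and uracil repair. MCM2, CCND1, CCND3 and ORC6 were lowest on that inhibitor array, and CDT1, RFC2, POLA1 and CHAF1A lay between the other inhibitor arrays. The median SD of the members was 0.10 over the inhibitor arrays and 0.06 over the control arrays, against 0.10 and 0.08 over all genes.

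**Figure D4:**
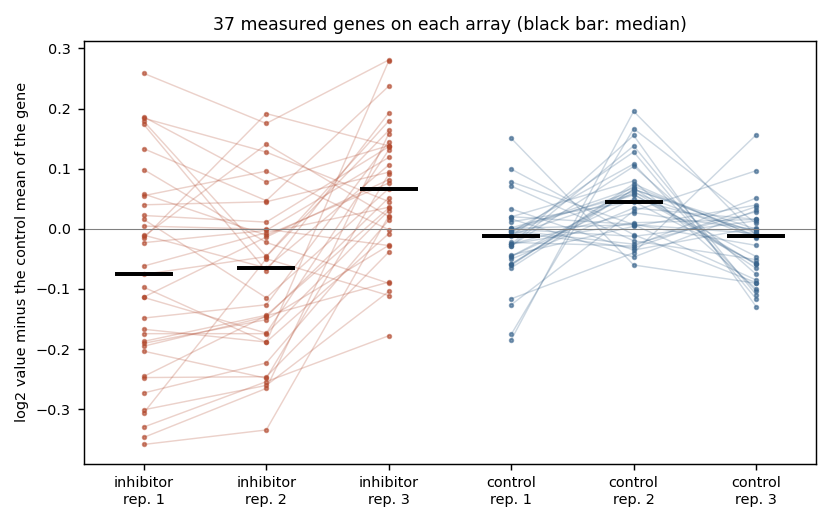
Log2 value of each of the 37 genes minus its mean over the control arrays (points, joined by gene within a group) on the 3 inhibitor arrays (red) and the 3 control arrays (blue), with the median as a black bar. The bars lie at −0.08, −0.07 and 0.07 for the inhibitor arrays and at −0.01, 0.05 and −0.01 for the controls.

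Leaving out single arrays changed the count of members with an unadjusted p under 0.05 most for inhibitor replicate 3. Without inhibitor replicates 1, 2 and 3 in turn the count was 2, 3 and 12 members, beside 6.21%, 6.84% and 22.8% of all genes. Without control replicates 1, 2 and 3 it was 3, 2 and 4 members, beside 7.03%, 6.97% and 9.83% of all genes. Without inhibitor replicate 3 the 12 members made up 32.4% of those measured. RFC4 was higher, and CDC25A, CDK6, E2F2, MCM3, MCM4, RFC5, RRM1, RRM2, SLBP, TYMS and UNG were lower, which is 11 of 37 members beside 11.4% of all genes in that direction. The median of the members was then −0.06. After adjustment 0 members passed in that fit, beside 3 genes or 0.0246% of all genes. Without both inhibitor replicate 3 and control replicate 2 there were 9 members, 24.3% beside 18.7% of all genes, and 0 passed after adjustment, beside 0.00% of all genes. RFC4 was again higher, and CDK6, E2F2, RFC5, RRM1, RRM2, SLBP, TYMS and UNG were lower, which is 8 members beside 9.56% of all genes. Whether the members' share differed from that of all genes was not tested, and the fits without inhibitor replicate 3 were made with its high values in cycle genes known.

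**Figure D5:**
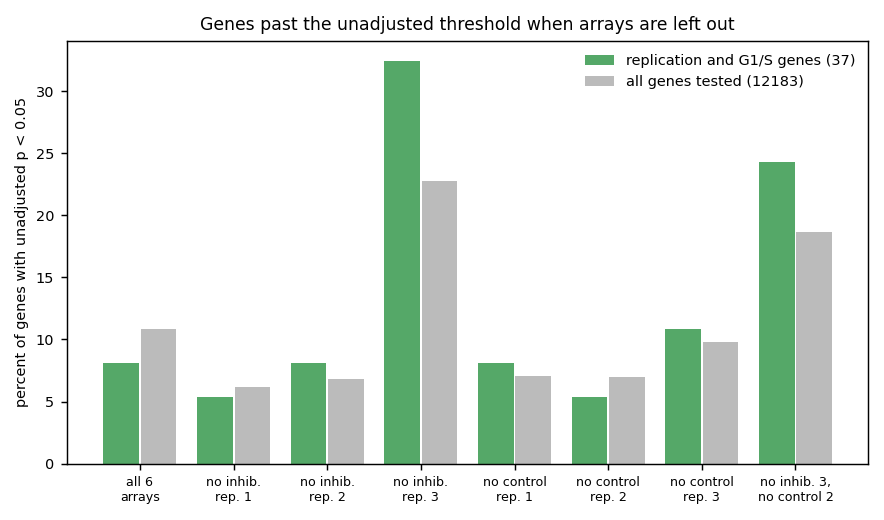
Percent of the 37 members (green) and of all 12183 genes tested (grey) with an unadjusted limma p under 0.05, with all 6 arrays and with arrays left out. The green bar stands at 8.11% with all arrays and at 32.4% without inhibitor replicate 3, where the grey bar stands at 22.8%.

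Related genes outside the list were read from the same fit. Of 45 further replication genes 42 were measured, with 20 higher, 22 lower and 2 at an unadjusted p under 0.05, beside 10.8% of all genes. These were DBF4, the activating subunit of the CDC7 kinase, at 0.32 ± 0.10 (SE, adjusted p 0.407), and GINS4, of the GINS complex, at 0.20 ± 0.07 (SE, adjusted p 0.409). Both were higher on every inhibitor array than on any control array. The groups did not overlap in 11.9% of the 42 genes, beside 16.3% of all genes. The maintenance methyltransferase DNMT1 had −0.18 and the checkpoint adaptor CLSPN had −0.16. A further list held 27 genes that brake G1/S, encode pocket proteins or act beside them. It is called brakes and pocket proteins here, although it also holds activating genes such as CCNH and CDK7. Of its 27 genes 24 were measured. Of these 15 were higher, 9 lower and 0 at an unadjusted p under 0.05, beside 10.8% of all genes. The kinase inhibitor genes CDKN1C and CDKN1B had 0.28 and 0.12, CCNH, a subunit of the kinase that activates cyclin-dependent kinases, had 0.12, and WEE1, which inhibits them, had −0.13. Without inhibitor replicate 3, where 22.8% of all genes had an unadjusted p under 0.05, 2 further replication genes were higher and 8 lower at that threshold. Of the brakes and pocket proteins 1 was then higher, CDKN1C at 0.45 (adjusted p 0.140 with limma). In this list 2 were lower, CDK7 at −0.40 (adjusted p 0.0594) and WEE1 at −0.20 (adjusted p 0.154), and 12 of the 24 lay on each side of 0. After adjustment 0 of either list passed in that fit.

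All 25 mitotic genes were measured, with 13 higher, 12 lower and 1 at an unadjusted p under 0.05, beside 10.8% of all genes. That gene was TPX2, a spindle assembly factor, at −0.27 ± 0.09 (SE, adjusted p 0.401). TOP2A, which untangles chromosomes, had −0.16, and PTTG1 and NDC80, of sister separation and the kinetochore, had 0.12 and 0.12. With inhibitor replicate 3 left out, 6 mitotic genes had an unadjusted p under 0.05, all 6 lower, beside 11.4% of all genes in that direction. TPX2 was then at −0.36 (adjusted p 0.0652). The mitotic genes had array medians of −0.08, −0.05 and 0.14 with the inhibitors and of −0.04, 0.04 and 0.00 in the controls, and 20 of 25 were highest on inhibitor replicate 3 within their group. In the further replication genes 29 of 42 were highest there, and in the brakes and pocket proteins 13 of 24, beside 37.5% of all genes. The array medians of the brakes and pocket proteins were 0.02, 0.01 and 0.06 with the inhibitors and −0.03, −0.02 and 0.02 in the controls.

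Of the 16 members with several tested probes, 9 had all their probes on 1 side of 0, and 7 did not, namely CCNE1, CDK2, ORC6, POLA1, RFC3, RFC4 and SLBP. Both of the genes with the lowest p-values besides CDK6 are among the 7. CDK6 itself had a single probe, as did E2F2, RRM1 and TYMS. A member probe was read from 19 to 67 beads per array, and the standard error over its beads was 1.15% to 7.02% of the signal, with a median of 3.03%. The differences of 17.9% and −16.1% at the ends of the range were larger than this bead error, which leaves out the spread between samples.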

How the data were processed

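Total RNA of 6 samples was labelled with biotin and read on Illumina arrays. The deposited array tables hold a bead signal per probe, a linear intensity that is not normalized, with a detection score taken to be 1 minus a detection p-value. BeadStudio wrote them, per the submitters' processing notes; no version is named in the sources used here. The series table deposited by the authors holds intensity values that share 1 distribution, by a step the sources used here do not give. Its probe names, and through the platform annotation the gene symbols, were joined to the array tables by rank over the 6 arrays, unique for all 48803 probes.

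The signals went through neqc of limma 3.58.1 in R 4.3.3 (background correction, quantile normalization and log2, offset 16). A probe was tested where its score exceeded 0.95 on 3 or more of the 6 arrays, and the tested probe with the highest mean stood for its gene. Differences were tested two-sided with limma's eBayes, without a replicate block, and adjusted by the Benjamini-Hochberg method over all genes (threshold 0.05). Members, gene lists, tests and alternatives were chosen with earlier results of these data known. Values on every array were given for CCNE2, for members with an unadjusted p under 0.05 and for the 2 members of each role with the lowest p; up to 4 genes with the lowest p were named per related list. RRM2, CCNE1 and E2F1 were added after their values were seen. Alternatives covered background correction, normalization, offset, series table, detection filter, estimate of spread, array weights, Welch's test, replicate block, probe averaging and arrays left out.

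The labels call the samples biological replicates without saying what separated them, so the p-values refer to the spread between these 6 samples, which may be technical. The design text speaks of mimics; the sample labels, which speak of inhibitors, were followed. Arrays have no read depth, and their number limits the precision. On simulated arrays with 200 of 21928 probes changed, 0% of the changed probes were recovered at 1.25-fold, 81% at 1.5-fold and 99.5% at 2-fold. The simulated noise was independent between probes, without the deviations that genes share on an array here, and these shares are for probes and not genes. Figures were drawn with matplotlib 3.10.9.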

Additional observations from a re-analysis of the deposited data

How the results depend on the processing

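With limma 0 members passed after adjustment under every alternative, and over all genes 0 passed except without inhibitor replicate 3 (3 genes, the range with 1 array left out being 0 to 3). The count of members with an unadjusted p under 0.05, 3 as reported, was 6 without background correction, 6 with an offset of 50, 6 with trend and robust spread, 7 with the authors' series table, 8 with array weights and 10 with median centring, all 10 higher. It was 2 to 12 on leaving out single arrays, and 9 without both inhibitor replicate 3 and control replicate 2. Welch's test per gene gave 0 members after adjustment and 3 before it. Their median was 0.13 with median centring, beside 0.12 over all genes, and −0.06 to 0.01 with 1 array left out. With median centring 2713 of 2822 genes at an unadjusted p under 0.05 were higher, against 630 of 1318 as reported. The 14 named members had 182 values under the 13 alternatives that can move a difference, and 176 of these kept their direction. Reversed with median centring were CDC25A (0.0122), CDC45 (0.10), E2F3 (0.0317), MCM4 (0.0279) and RRM1 (0.0138), and CDC45 was −0.14 to 0.0094 with 1 array left out, above 0 without inhibitor replicate 1. The cause was not tested. CCNE2 has a value only without the detection filter, 0.07. With the replicate number as a block 0 probes and 0 genes passed and 3 members had an unadjusted p under 0.05. The labels state no pairing of the samples by these numbers. Same-numbered deviations correlated at 0.0890, −0.258 and −0.213, which does not settle it, since the deviations within a group of 3 sum to 0. Near background, where CCNE2, E2F1 and GINS1 lie, signal limits what can be seen.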
